A study of Arabidopsis thaliana with 4 samples.

Results

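The transcripts described here are those that were lower at 96 h than at 48 h after transfer in both the control and the potassium-free solution, in roots of Arabidopsis thaliana. They were chosen on measured values. A probe set, the group of short probes that reports 1 transcript or a few alike ones, was a member when it met 2 conditions. Its signal had to reach the 40th percentile of the array on 2 arrays or more, and its log2(signal + 16) had to be lower at 96 h by log2(1.5) or more in both solutions. Of 13998 probe sets that reached the filter, 169 (1.21%) did so, and 6 of these were left out by name: AT5G26130, PDF2.1, AT4G08380, XTH26, CYP71B29 and 1 probe set without a listed gene. This left 163 members. The 96 h against 48 h difference was the choice itself, so it is described below and not tested.

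Plants of the Col-0 accession, 4 to 5 weeks old, were kept hydroponically, the roots hanging in liquid medium, under a 16 h photoperiod at 22 °C, and were moved to fresh control solution or to potassium-free solution. The control solution held 0.5 mM KH2PO4 and 1.25 mM KNO3, which the potassium-free solution replaced with 0.5 mM H3PO4 and 1.25 mM HNO3. Roots were taken 48 h or 96 h after the move, their RNA was labelled with biotin, and each of the 4 combinations was hybridised to 1 Affymetrix ATH1 array. All 4 groups were Col-0, the number of plants behind each root mix is not stated, and 1 array per group means that no value has a replicate.

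The root surface is a secretory tissue. Its cells export enzymes and small proteins into the wall: peroxidases and dirigent proteins work on phenolic polymers, inhibitors of pectin methylesterase set how stiff pectin becomes, and lipid transfer proteins, defensins and germin-like proteins are secreted to the wall as well. Potassium is the main inorganic cation of the plant cell, taken up by root transporters and channels, and plants deprived of it alter transport and growth over days.

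The 4 arrays were on a common scale, with a 2% trimmed mean of 100.01 on each and a median over all probe sets between 46.8 and 47.9. The 40th percentile lay between 29.4 and 30.4, so a signal below about that level is dim. Of the root hair marker genes, 4 had a named probe set that passed the filter, with signals from 94.4 to 1899.6. The listed markers of green tissue and of dividing cells had no named probe set at all. Their signals were therefore not read, and nothing is said here about the presence of such cells. The hybridisation controls added to each sample were lowest on the control 96 h array for all 18 of their probe sets, with a median of 0.619 of the control 48 h array, against 1.21 on the starved 48 h and 1.26 on the starved 96 h array. Their part in the values below was not tested. Time after transfer, plant age and any harvest batch cannot be told apart in this design. Only the potassium-free solution held the acids H3PO4 and HNO3, so the lack of potassium and the added acids cannot be told apart. In whole roots, fewer cells of a type and less RNA per cell cannot be told apart either.

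The members were brighter at 48 h and dimmer at 96 h than the median transcript. Their median signal was 164 then 85.3 in control and 157 then 82.0 in starved roots, 48 h before 96 h, while the median over all probe sets that passed the filter stayed between 97.3 and 100.1. The median member was 1.73-fold lower at 96 h in control roots (log2 difference -0.79, quartiles -0.97 and -0.66) and 1.76-fold lower in starved roots (-0.82, quartiles -1.05 and -0.68). Over all 13998 the median differences were -0.01 and -0.00035. Fold differences here are on the log2(signal + 16) scale, which understates those of dim transcripts. Because members were chosen on these same signals, a separation of the times was largely set in advance and is no separate result. Both 96 h signals lay below both 48 h signals for 162 of the 163, against 26.4% of all probe sets tested. The exception was 250758_at, a probe set without a listed gene, whose starved 96 h signal of 60.3 exceeded its control 48 h signal of 53.1.

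Most members lay close to the limit of choice. A difference of at least 2-fold in both solutions was seen in 18 members, where 22 of all probe sets (0.157%) had it. In control roots 36 members were at least 2-fold lower (background 0.4%), and in starved roots 46 were (background 0.907%). Just inside the limit stood 262793_at, AT5G02480 and 253004_at, whose smaller log2 differences were each -0.59. Just outside stood 250820_at, 259447_s_at and AT5G66560, each at -0.58. A lower signal at 96 h in both solutions was also rarer than its opposite, since 318 probe sets (2.27%) were at least 1.5-fold higher at 96 h in both.

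**Figure D1:**
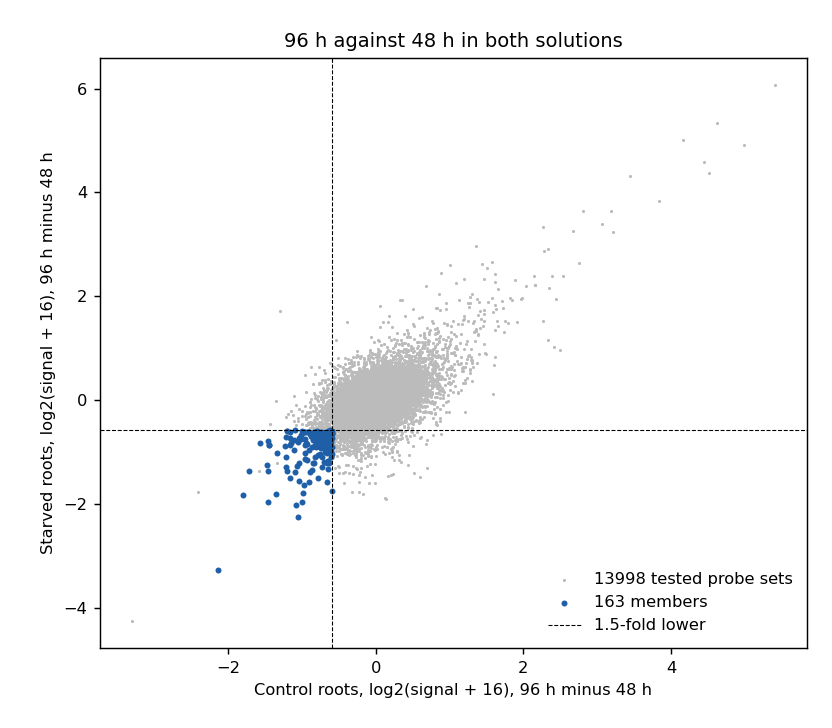
Difference of 96 h from 48 h on the log2(signal + 16) scale, in control roots (x axis) and starved roots (y axis), 1 point per probe set that passed the filter. Grey points are all 13998, blue points the 163 members, and dashed lines mark 1.5-fold lower in each solution; most members lie near the lines, and 1 lies apart at -2.14 and -3.27.

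Exactly 1 gene was listed for 76 members (46.6%, against 54.2% of all probe sets tested), several genes for 9, and none for 78. A role was assigned to 51 of the 76 genes from general knowledge of their families, after the values were seen and without a gene description in the files to check it against. Of the 163 members, 129 reached the 40th percentile on all 4 arrays, 16 on 3 arrays and 18 on 2 arrays, and these 18 reached it at 48 h alone.

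In the values below, the first of each pair of signals is the 48 h array and the second the 96 h array of that solution. Among genes of the wall and of defence, the lowest at 96 h by the smaller of the differences in the 2 solutions was AT1G70880, a member of the major latex protein family, whose proteins share the fold of pathogenesis-related class 10 proteins. It went from 505 to 174 in control and from 860.2 to 209.6 in starved roots. Both solutions were thus low at 96 h, 2.75-fold in control and 3.88-fold in starved roots. A second gene of the family, AT1G30990, was far fainter, with 33.1 and 14.3 in control and 42.2 and 19.7 in starved roots, and reached the 40th percentile at 48 h alone. An earlier list of this family, matched by name, held neither gene. Of its 3 genes that passed the filter, 1 was below 0 in both solutions. Their median log2 differences were 0.47 in control and 0.20 in starved roots.

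The 3 dirigent genes belong to the family that steers the coupling of phenolic radicals, known for lignan synthesis and for lignin placement in the endodermis. AT4G11190 read 33.3 in control roots at 48 h and 1.79 at 96 h, with 34.3 and 5.12 in starved roots, the 96 h values being far under the 40th percentile. Its neighbour AT4G11210 had signals of 62.5 and 28.4 in control and 47.4 and 13.6 in starved roots. AT2G21100 stood at 90.4 then 52.6 in control and at 109 then 64.2 in starved roots. For each of the 3 the 96 h signals lay below both 48 h signals, with folds from 1.55 to 2.77.

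Class III peroxidases are secreted haem enzymes that cross-link or loosen wall polymers with hydrogen peroxide. AT1G49570 read 701 then 332 in control and 539 then 101 in starved roots. It was 2.06-fold lower in control roots and 4.76-fold lower in starved roots, the widest gap between the solutions among the members. AT5G15180 read 270.1 then 161 in control and 278 then 159.5 in starved roots, the same course in both solutions. AT2G39040 had signals of 154 and 64.1 in control and 139 and 87.3 in starved roots, and there the control roots had the lower 96 h value.

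The inhibitors of pectin methylesterase and invertase are small secreted proteins that block enzymes of pectin or sucrose. AT5G62340 read 437 then 163 in control and 347 then 163 in starved roots. AT5G62360 stood at 187 then 86.4 in control and at 249 then 51.7 in starved roots. AT4G25250 read 81.2 then 40.6 in control and 76.4 then 28.5 in starved roots. The 3 genes were 1.72-fold to 2.53-fold lower in control and 2.03-fold to 3.92-fold lower in starved roots.

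The germin-like gene AT3G05950, of a family of wall proteins with a cupin fold, went from 651 to 300.1 in control and from 796 to 183 in starved roots. Starved roots had the higher signal at 48 h and the lower at 96 h, so that the difference was 2.11-fold in control and 4.08-fold in starved roots. A further cupin-fold gene, AT4G10280, had signals of 75.5 and 39.3 in control and 69.7 and 19.0 in starved roots.

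The lipid transfer proteins, small cysteine-rich proteins that carry lipids outside the cell, included bright transcripts. AT5G05960 read 1061 in control roots at 48 h and 540.2 at 96 h, with 1008 and 545 in starved roots, with the solutions alike at each time. AT2G45180 stood at 308 then 189 in control and at 316 then 127 in starved roots. AT4G22640 read 127 then 48.5 in control and 150.1 then 77.0 in starved roots. AT4G12360 had signals of 56.7 and 15.5 in control and 93.4 and 50.7 in starved roots, higher in starved roots at both times.

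Antimicrobial proteins were represented by 2 defensins, small basic peptides with disulfide bridges. LCR69 (AT2G02100) had the highest signal of all named members, 2129 then 1244 in control and 2404 then 1338 in starved roots. PDF2.5 stood at 553 then 265 in control and at 490.3 then 299.9 in starved roots. The thaumatin-family gene AT1G73620 read 229.8 then 90.8 in control and 199.5 then 127 in starved roots. AT4G30320, a gene of the secreted CAP proteins (named for cysteine-rich secretory proteins, antigen 5 and pathogenesis-related 1), had signals of 107 and 64.3 in control and 159 and 78.6 in starved roots. At 96 h, none of these 4 had its lower signal in starved roots.

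The remaining wall and secreted proteins were AT3G57010, of the strictosidine synthase-like family, the glyoxal oxidase-related gene AT1G19900 and EXLB1, an expansin-like gene. AT3G57010 read 137 then 50.0 in control and 96.1 then 36.4 in starved roots, lower in starved roots each time. EXLB1 stood at 181 then 113 in control and at 152 then 85.7 in starved roots. AT1G19900 read 142 then 85.1 in control and 159 then 75.3 in starved roots.

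**Figure D2:**
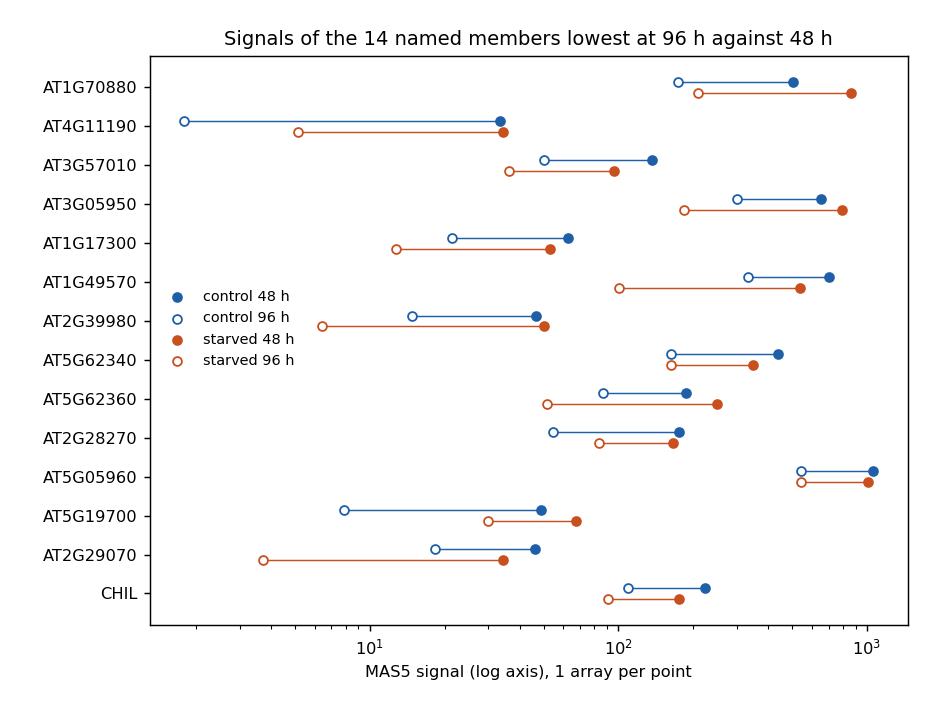
MAS5 signal on a log axis of the 14 members with 1 listed gene that had the widest smaller difference, in the order of that difference. Filled circles are 48 h and open circles 96 h, blue the control and orange the starved roots, 1 array each; each open circle lies left of the filled circle of its colour.

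Among the transport genes, AT5G19700 encodes a protein of the MATE family, which exports organic compounds from the cytosol. It went from 48.9 to 7.90 in control and from 67.5 to 29.8 in starved roots, so both 96 h signals lay under the 40th percentile and the control one was the lower. AT3G45700, of the NPF family of nitrate and peptide transporters, had signals of 157 and 94.5 in control and 102 and 36.2 in starved roots. It was lower in starved roots at both times. AT1G25530, of an amino acid transporter family, stood at 195 then 122 in control and at 168 then 91.5 in starved roots. AT4G22840, of the bile acid sodium symporter family, read 84.9 then 49.8 in control and 107 then 53.8 in starved roots.

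The 12 metabolic genes had a median log2 difference of -0.64 in control and -0.82 in starved roots. The starved signal was the lower at 96 h in 11 of the 12, as it was in 100 of the 163 members (61.3%) and in 50.1% of all probe sets, and these 96 h values took part in the choice. In the BAHD family, whose enzymes join acyl groups to phenolics and alcohols, AT5G01210 read 758 in control roots at 48 h and 475 at 96 h, with 896 and 288 in starved roots. It was 1.58-fold lower in control and 3.00-fold lower in starved roots. AT2G39980, of the same family, had signals of 46.8 and 14.7 in control and 50.1 and 6.4 in starved roots. CHIL, a chalcone isomerase-like protein that aids flavonoid synthesis, stood at 223 then 109 in control and at 176 then 90.4 in starved roots. The solutions were closer for CHIL, with 1.91-fold and 1.80-fold.

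AT1G62660, a vacuolar invertase that splits stored sucrose, read 1236 then 806 in control and 1159.7 then 764 in starved roots. It was bright throughout and near the limit of choice, at 1.52-fold and 1.51-fold. SDH2-2, an iron-sulfur subunit of the respiratory succinate dehydrogenase, read 269.6 then 148 in control and 242 then 138 in starved roots. AT1G73600, a phosphoethanolamine methyltransferase gene of choline lipid synthesis, had signals of 384 and 246 in control and 392 and 194 in starved roots. AT5G05880, a glucosyltransferase gene, and AT1G25230, of the purple acid phosphatase family, stayed among the members because the rule left out genes by symbol and these carry their locus name. They were 1.51-fold and 1.53-fold lower in control roots and 1.88-fold and 1.51-fold lower in starved roots. The GDSL lipase-family gene AT1G29670 stood at 59.97 then 32.4 in control and at 33.9 then 13.2 in starved roots, lower in starved roots at both times. AARE, which removes acylated amino acids from peptides, and the methyltransferase-family genes AT1G69526 and AT2G45750 completed the 12, each 1.53-fold to 1.86-fold lower.

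The 7 signalling and regulatory genes were 1.59-fold to 1.92-fold lower in control and 1.57-fold to 1.90-fold lower in starved roots. AT1G63550, a cysteine-rich repeat secretory protein, went from 75.4 to 31.7 in control and from 88.9 to 42.8 in starved roots. COR27, a cold-regulated gene that also acts in the circadian clock, read 67.7 then 33.5 in control and 63.6 then 26.4 in starved roots. AT5G44910, which carries a TIR domain as found in immune receptors, had signals of 94.7 and 51.97 in control and 127 and 59.2 in starved roots. The protein kinase AT4G34500 stood at 150.4 then 88.8 in control and at 145 then 70.5 in starved roots. All 4 were low on both 96 h arrays. The others were the receptor kinase AT1G25320, the protein phosphatase 2C gene AT5G26010 and AT4G39670, of the glycolipid transfer protein family.

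Genes of growth were TUB1, a beta-tubulin of the cytoskeleton, AT4G25890, an acidic ribosomal protein, and AT2G21130, a cyclophilin. TUB1 read 243 in control roots at 48 h and 116 at 96 h, with 232 and 147 in starved roots. AT4G25890 read 449 then 267 in control and 441 then 258 in starved roots. AT2G21130 had signals of 84.5 and 46.1 in control and 89.7 and 47.9 in starved roots. The solutions lay close together at each time for the last pair. The chloroplast-encoded psaJ, a photosystem I subunit, stood at 491 then 308 in control and at 524 then 342 in starved roots.

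**Figure D3:**
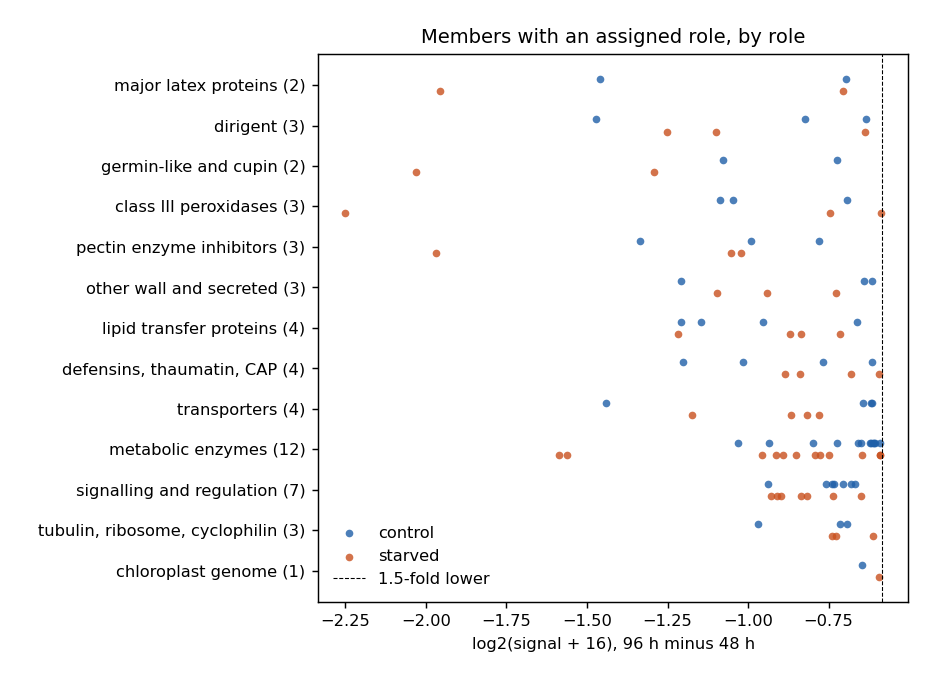
Difference of 96 h from 48 h on the log2(signal + 16) scale for the 51 members with an assigned role, by role, with the number of genes in brackets. Blue points are control and orange points starved roots, 1 point per gene and solution, and the dashed line is 1.5-fold lower; the widest difference shown is the starved value of the peroxidase gene AT1G49570 at -2.25.

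Of the 25 genes without an assigned role, the lowest by the smaller difference were AT1G17300, AT2G28270 and AT2G29070. AT1G17300 read 62.5 then 21.4 in control and 52.9 then 12.7 in starved roots. AT2G28270 read 176 then 54.3 in control and 166 then 83.2 in starved roots. AT2G29070 had signals of 46.2 and 18.3 in control and 34.4 and 3.72 in starved roots. The control roots were thus the lower at 96 h for AT2G28270, and the starved roots for the other two.

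By the smaller difference, the 2 lowest members of all were probe sets that list several genes or none. The lowest was 254539_s_at, which lists the neighbouring genes AT4G19760 and AT4G19750, both of the chitinase-type glycosyl hydrolase family 18, and cannot tell them apart. It went from 233 to 40.5 in control and from 146 to 0.763 in starved roots, the last being the lowest signal of any member. Without a listed gene, 255812_at stood at 114 then 21.6 in control and at 70.2 then 8.15 in starved roots. Next came 267045_at with 188 then 46.3 in control and 133 then 41.7 in starved roots. All 3 were lower in starved roots at both times. The others were 255105_at, with 392 then 133 in control and 244 then 85.1 in starved roots, and 248208_at, with 43.9 then 7.52 and 47.1 then 2.06.

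Of the other probe sets with several genes, 263316_s_at lists GLR2.2 (AT2G24720) and GLR2.3 (AT2G24710), glutamate receptor-like channels, and read 218 then 85.3 in control and 227 then 77.6 in starved roots. The subtilase protease genes AT4G10530 and AT4G10520 share 254977_s_at, which was 1.51-fold and 1.67-fold lower. The berberine bridge enzyme-like genes AT4G20840 and AT4G20830 share 254431_at, at 1.60-fold and 1.52-fold. Those of AT3G13710 with AT3G13700 and of AT4G38330 with AT4G38280 stood at 1.5-fold to 1.57-fold.

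The last 3 report core histones, the proteins that package DNA, whose replication-type genes are transcribed while cells copy their DNA. The histone H4 probe set 252562_s_at read 187 in control roots at 48 h and 92.5 at 96 h, with 208 and 99.5 in starved roots. A second H4 probe set, 251924_at, had signals of 479.7 and 236 in control and 433 and 278 in starved roots. The replication-type H3.1 probe set 264262_at stood at 304 then 169.7 in control and at 361 then 188 in starved roots. These were 1.73-fold to 1.97-fold lower in control and 1.53-fold to 1.94-fold lower in starved roots.

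The histones were then followed beyond the members, in a list of 34 genes for histones H2A, H2B, H3 and H4 written after the values were seen. Without the 3 members, 16 of its probe sets passed the filter, and 14 of these (87.5%) were below 0 in both solutions, against 32.7% of all probe sets that were not within the limit. Their median log2 differences were -0.49 in control and -0.40 in starved roots. The 4 further H3.1 probe sets lay from -0.68 to -0.46 in control and from -0.95 to -0.39 in starved roots. The 3 further H4 probe sets lay from -0.58 to -0.32 and from -0.72 to -0.42. The replacement-type H3.3, which is made outside DNA replication, had 3 probe sets between -0.27 and 0.00 in control and between -0.15 and 0.09 in starved roots. Probe sets of H3.1, H4 or H3.3 list the same genes as others of their type, so they are not independent measurements, and the histone types were not compared by a test. An earlier histone list, matched by name, held other genes: of the 4 that passed the filter, 1 (HON4, a linker histone) was below 0 in both solutions, 1 (HIS1-3, also a linker histone) was at least 1.5-fold higher in both, and the medians were 0.02 and 0.08. It shared HTB2 with the list of 34, and its last gene, HDA15, encodes a histone deacetylase.

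Other families of the members were read in the same way, from lists also set after the values were seen. Members and PDF2.1, which met the limits and was left out by name, were set aside, since the choice fixed their direction. Over all probe sets, 1.21% were within the limit, 2.27% were at least 1.5-fold higher in both solutions, and 32.7% of those outside the limit were below 0 in both. Among class III peroxidases 3 of 41 were members and 1 was at least 1.5-fold higher in both. Of the other 38 peroxidases, 20 (52.6%) were below 0 in both, with medians of -0.19 in each solution. Of 8 dirigent genes 3 were members, and of the other 5, 3 were below 0 in both, with medians of -0.19 and -0.04. Of 5 defensins 3 met the limits, and 1 of the other 2 was below 0 in both. Of 7 tubulin genes 1 was a member, and of the other 6, 4 were below 0 in both, with medians of -0.39 in control and -0.07 in starved roots.

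**Figure D4:**
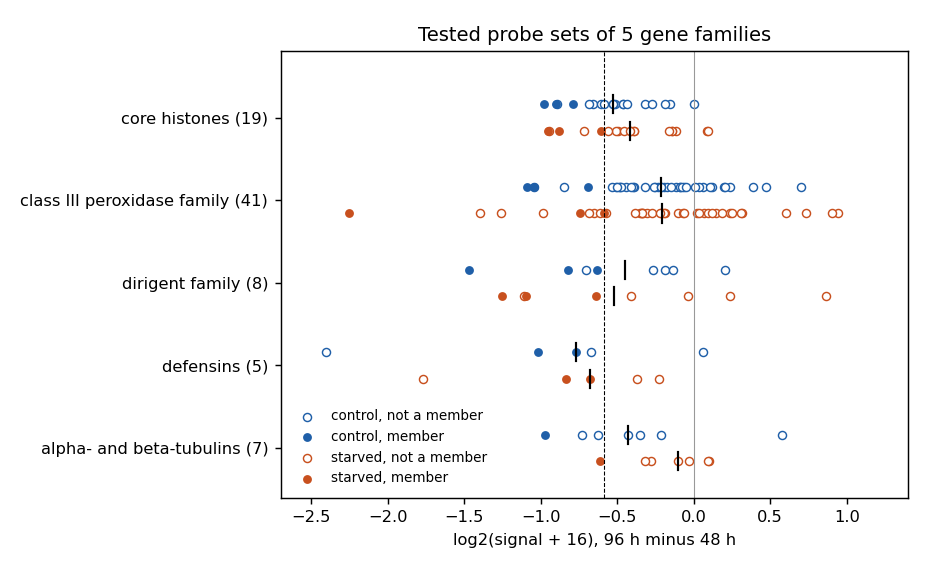
Difference of 96 h from 48 h on the log2(signal + 16) scale for every probe set that passed the filter in 5 families, with the number in brackets. Filled points are members and open points are not, blue control and orange starved roots, black ticks the medians of all points in a row, members included, the dashed line 1.5-fold lower; the peroxidases spread on both sides of 0, while 14 of the 16 histone probe sets that are not members lie below 0 in both solutions.

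Of the 32 gene lists of processes and families drawn up for the roots, 11 matched no named probe set at all and could hold no member. These include the dirigent, germin-like and strictosidine synthase-like lists, although members of those families are described above. A member was held by 2 lists, SDH2-2 and TUB1, and 12 lists had at least 3 probe sets that passed the filter. The transcription factor list of 796 genes had 28 such genes and no member. The root hair list had 4 and no member. Over all probe sets 1.21% were within the limit, so lists this short could hold no member without differing from the rest. Of these 4 root hair genes, the peroxidase genes AT1G30870, AT3G49960 and AT4G26010 were below 0 in both solutions. The other gene, AT5G06630, is not in the peroxidase list. It was higher at 96 h, at 456 then 859 in control and 335 then 1899.6 in starved roots. AT3G49960 read 212 then 94.4 in control and 290.2 then 226 in starved roots. Its log2 difference was -1.05 in control roots but -0.34 in starved roots, short of the limit.

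On the chromosomes, members were found on all 5, with 22, 10, 7, 16 and 20 of the 75 nuclear genes on chromosomes 1 to 5. Chromosome 3 held 9.33% of them and 20.3% of the genes tested. In 4 cases 2 members lay within 5 protein-coding genes of each other: AT4G11190 with AT4G11210, AT5G62340 with AT5G62360, AT1G73600 with AT1G73620, and AT2G21100 with AT2G21130. The first pair are dirigent genes and the second pectin enzyme inhibitors, while the other pairs join genes of different families. These 8 members are 10.7% of the 75, and 2.79% of the other genes tested had a member that close. Like sequences of tandem copies can share probes, so the members of a family pair may not be separate measurements.

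The 96 h against 48 h difference was not the same size in the 2 solutions. Starved roots had the larger difference for 96 members (58.9%, against 48.3% of all probe sets) and control roots for 67. A gap of at least 0.5 on the log2 scale was found in 18 members (11.04%) towards starved roots, with a background of 7.01%, and in 7 members (4.29%) towards control roots, with a background of 7.25%. The rule was set on these same differences, and 1 array per group leaves no test of the gap. The 5 named members with the widest gap were AT1G49570, AT5G62360, AT3G05950 and AT5G01210, all with the larger difference in starved roots, and AT1G73620, with the larger in control roots. Those 4 had folds of 1.58 to 2.11 in control roots and of 3.00 to 4.76 in starved roots. Among members without a listed gene, 247586_at went from 748 to 489.5 in control and from 660.4 to 184 in starved roots, and 255127_at read 377 then 184 and 329 then 84.2. Their starved 96 h signal was the lowest of the 4, as it was for those 4 genes.

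The potassium-free solution was the comparison that the choice of members did not use, when averaged over the times. The mean starved minus control difference was tested with limma over all 13998 probe sets, with solution and time as terms and Benjamini-Hochberg adjustment. Of the members 2 passed at 0.05, where 27 of all probe sets (0.193%) passed: 1 member was lower (background 0.0714%) and 1 higher (background 0.121%). The chitinase-type probe set 254539_s_at was lower in starved than in control roots by a mean of 1.19 on the log2 scale (SE 0.21, adjusted p = 0.0271 in limma). It was lower at both times, by 1.54-fold at 48 h and 3.37-fold at 96 h. Its starved 96 h signal of 0.763 lies far below the 40th percentile, so the sizes of the 96 h fold and of the mean depend on the pseudocount of 16. The probe set 250758_at, without a listed gene, was higher by 0.86 (SE 0.16, adjusted p = 0.0384), by 1.73-fold and 1.89-fold, with signals of 53.1 then 24.3 in control and 104 then 60.3 in starved roots. Each mean rests on 2 arrays per solution. With 1 residual degree of freedom, the SE comes mostly from the spread shared across probe sets and not from replicates. Neither call was made in 7 other settings, among them a fit with no time term. Under another, the 60th percentile filter, 250758_at was not tested. With the time term kept, the adjusted p in limma ranged up to 0.797 for both. Without it, the 96 h against 48 h difference, wide by choice, entered the residual spread. Fits with 1 array left out had no time term either and mix time with solution, so they cannot decide the calls.

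The next named genes by p did not pass. The NPF-family gene AT3G45700 stood at -0.81 (SE 0.16, adjusted p = 0.0581 in limma) and the lipid transfer gene AT4G12360 at 0.84 (SE 0.17, adjusted p = 0.0640). The peroxidase gene AT1G49570 stood at -0.97 (SE 0.21, adjusted p = 0.0875 in limma), the mean of -0.37 at 48 h and -1.57 at 96 h. AT1G29670 (-0.67) and AT4G04990 (0.55), whose adjusted p in limma were 0.182 and 0.215, came after these. AT4G04990 read 65.6 then 30.3 in control and 96.4 then 56.4 in starved roots. At an unadjusted p under 0.05 there were 40 members (24.5%), 27 lower and 13 higher in starved roots, against 7.39% of all probe sets. Members were chosen for wide differences between single arrays, while the SE comes mostly from a spread shared across probe sets. The higher share can therefore not be read as an effect of the solution.

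Over the whole set the starvation difference was small and leaned to lower values. Its median was -0.10 over the members and -0.01 over all probe sets, and 101 members (62.0%) were lower in starved roots, against 53.0%. Lower at both times were 75 members (46.0%, background 26.7%), higher at both 42 (25.8%, near the background of 23.9%), and 46 went opposite ways. The single-time values have no test. At 48 h, 7 members were at least 1.5-fold lower in starved roots (background 1.23%) and 3 at least 1.5-fold higher (background 1.1%). At 96 h these were 22 (13.5%, background 2.64%) and 7 (4.29%, background 2.46%). The 96 h values share their arrays with the choice of members.

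**Figure D5:**
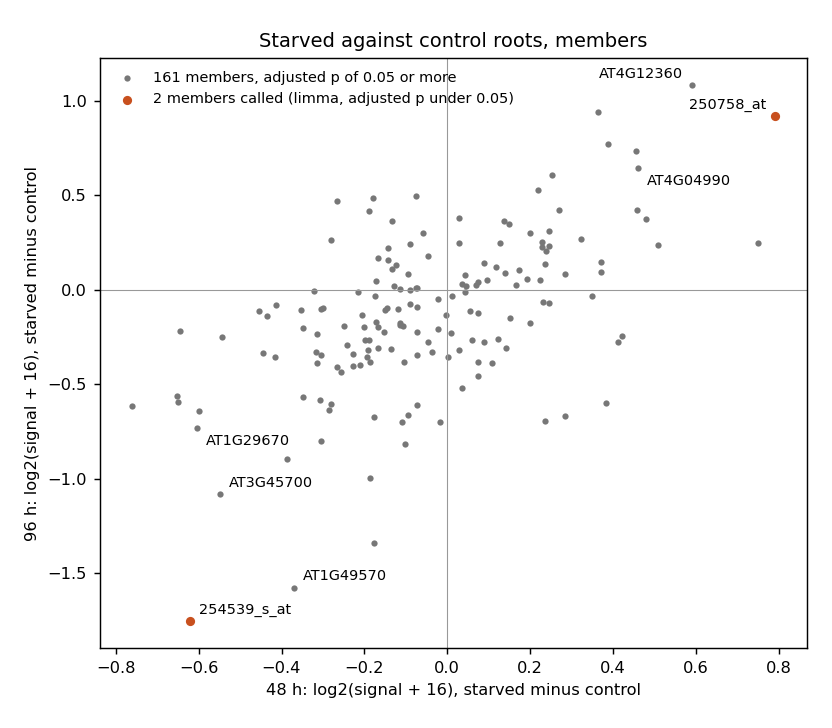
Starved minus control difference on the log2(signal + 16) scale at 48 h (x axis) and 96 h (y axis) for the 163 members. Orange points are the 2 that passed the limma test of the mean difference at an adjusted p of 0.05, grey points the other 161, and names mark those 2 and the 5 named genes with the smallest p; 254539_s_at lies lowest, at -1.75 at 96 h.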

How the data were processed

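Root RNA labelled with biotin was hybridised to 4 Affymetrix ATH1 arrays of 1 colour. The authors deposited linear signal intensities for each probe set, computed with MAS5 according to the submitters' processing notes. Its version and settings, and the genome build, were not given in the sources used here. Of 22810 probe sets, 64 controls were set aside, and 13998 of the other 22746 lay at or above the 40th percentile of their array on 2 arrays or more. The deposited values already shared a 2% trimmed mean of 100.01, and the log2 of the value plus 16 was taken without further scaling. Arrays carry no depth, so their number limits the precision, and p-values here do not measure a spread between like arrays.

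The starvation effect was fitted with limma 3.58.1 in R 4.3.3 (lmFit, then eBayes with an intensity trend, prior degrees of freedom 14.94) with solution and time as terms, Benjamini-Hochberg adjustment over all 13998 and a threshold of 0.05. Simulated data with planted effects were used to test the fit. Differences within a time or a solution are values. Names come from the platform annotation and the RefSeq gene table of TAIR10.1, which served for names, chromosomes and gene order only; probe sets with several or no genes are given by identifier. Sequences were not used here.

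The members and gene lists were chosen with earlier results of these data known. Per-array values are printed for the 14 named members with the widest smaller difference, the 6 with the highest mean signal, the 5 with the smallest starvation p, the 5 with the widest gap between solutions, up to 4 per role or gene list (SDH2-2 by its list), the 3 on each side of the limit (differences only) and 5 members without a single gene. The called, histone, GLR, AT3G49960, AT5G06630 and further unlisted probe sets were added after their values were seen. The 32 process and family lists matched few named probe sets. Alternatives were the pseudocount, the array scaling, the filter, the fold limit, the eBayes trend, the time term and each array left out.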

Additional observations from a re-analysis of the deposited data

Results flagged for a closer look

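Signal outside the comparisons above was seen on 1 array: the 25S ribosomal RNA control measured 795.5 on the starved 48 h array and between 58.7 and 73.1 on the other 3 arrays. Its part in the members' values was not tested. The members' median signal on that array was 157, against 164 on the control 48 h array.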

How the results depend on the processing

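The number of members depended most on the pseudocount and the fold limit. It was 163 as reported, 273 with a pseudocount of 1 (all 163 among them), 48 with a pseudocount of 64 (all 48 from the 163) and 18 with a limit of 2-fold. With other array scalings it was 151 to 170, and with other filters 129 to 180. Over the same members the median difference became -0.98 in starved roots with a pseudocount of 1, and -0.58 in both solutions with a pseudocount of 64, as the pseudocount sets the scale. The median starvation difference lay between -0.12 and -0.06 across the pseudocounts, array scalings and filters run. It was not computed for the fits without a time term or with an array left out.

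The starvation calls of limma, 1 member higher and 1 lower, were 0 and 0 with a pseudocount of 1, quantile normalization, equal medians, cyclic loess, no filter, a 60th percentile filter and no time term. The members at an unadjusted p under 0.05 then numbered 42, 41, 40, 38, 36, 29 and 1. The 60th percentile filter did not test 250758_at. Without the time term, the 96 h against 48 h difference, wide by choice, entered the residual spread. That fit is therefore no check on the calls. The 3-array fits have no time term either and mix time with solution, so they cannot decide the calls. The calls were kept with a pseudocount of 64 and without the eBayes trend. A filter added after seeing the data required the 40th percentile on all 4 arrays. Under it 0 members were called higher and 2 lower, AT3G45700 and AT1G49570, each at an adjusted p of 0.0432 in limma. An unadjusted p under 0.05 was seen in 30 members, in either direction. The probe sets 254539_s_at and 250758_at reached that percentile on 3 arrays, so this filter left both untested. Of 55 named members, none changed the sign of the 96 h against 48 h difference in 411 recomputed values, and 69 of these moved, 26 with a pseudocount of 1 and 43 with 64. The choice of members largely fixed that sign in advance. A pseudocount cannot reverse it and a filter leaves the value unchanged, so only the other array scalings could have reversed it. No paired analysis was possible because each group holds 1 array and every label carries the same replicate number.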
